A study of Drosophila melanogaster with 2 samples.

Results

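The peaks described here are sites of CG2202-GFP enrichment that lie between genes in the Drosophila melanogaster embryo. They were chosen by position alone from the reproducible peak list (IDR, irreproducible discovery rate, a method based on peak ranks in replicates). A single peak of that list need not rank alike in both replicates. A member has its summit more than 500 bp from every annotated transcription start site (TSS) and outside every body of a protein-coding, ncRNA, tRNA, snRNA, snoRNA or rRNA gene. Of 3571 IDR peaks, 564 met this rule, which is 15.8% (exact 95% interval 14.6 to 17.0%), whereas such sequence makes up 27.4% of the bases of the 6 chromosome arms. The other IDR peaks comprised 1618 with a summit within 500 bp of a TSS, called promoter peaks, 1300 in introns and 89 in exons.

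The study used chromatin immunoprecipitation with an anti-GFP antibody on whole embryos of 0 to 12 h from a transgenic line that stably expresses CG2202 with GFP at its C terminus. Its 2 biological replicates form 1 group, and there is no second condition here. The labels name a possible control, whose data were not analysed here. RefSeq describes the CG2202 product only as an uncharacterized protein. Whole embryos mix all tissues and many stages, so a peak may come from few cells. Each list of a replicate and the pooled list hold 30000 peaks, of which IDR kept the 3571 of highest pooled signal. Read depth is unknown, and intervals cover the counting of peaks only. The members were compared with the intronic and promoter IDR peaks and with 5010 weaker intergenic peaks, which are pooled peaks under the same position rule that overlapped no IDR peak. Only 32.3% of these weaker peaks reached a caller q-value below 0.05, so they are not taken as weak binding sites.

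In the compact fly genome the sequence between genes holds enhancers, silencers such as Polycomb response elements, insulators and unannotated promoters. Such elements can act on a flanking gene or skip it, so a flanking gene is named here as a neighbour and not as a target. Developmental regulators typically sit beside long stretches of this sequence.

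The sequences of the members ranked 1, 5 and 7 by signal are not printed. Those of 6 other strong members, ranked 2, 3, 4, 6, 8 and 9, are printed here so that their letters can be read. Each runs 50 bp either side of the summit on the plus strand of dm6, read from the RefSeq Release 6 assembly. Capitals mark the words TATATA and GGTCACACT on either strand, and GATAAG would be marked too but is absent from all 6.
Between COX7AL2 and CG31668, chr2L:2202368-2202468: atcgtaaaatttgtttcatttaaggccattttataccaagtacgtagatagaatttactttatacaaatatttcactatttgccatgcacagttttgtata
Between Asator and zfh2, chr4:497837-497937: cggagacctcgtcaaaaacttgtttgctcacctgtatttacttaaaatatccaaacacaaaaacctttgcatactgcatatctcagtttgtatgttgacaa
Between CG43131 and RabGGTa, chr3R:5113215-5113315: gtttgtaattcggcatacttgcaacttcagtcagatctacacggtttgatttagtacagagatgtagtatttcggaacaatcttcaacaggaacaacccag
Between lncRNA:CR45411 and lncRNA:CR43785, chr3L:724552-724652: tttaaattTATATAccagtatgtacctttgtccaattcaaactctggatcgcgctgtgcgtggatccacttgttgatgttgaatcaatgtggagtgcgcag
Between slp1 and slp2, chr2L:3832479-3832579: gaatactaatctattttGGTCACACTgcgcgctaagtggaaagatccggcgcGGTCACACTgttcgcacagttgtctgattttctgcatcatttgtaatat
Between SoxN and lncRNA:CR45365, chr2L:8846073-8846173: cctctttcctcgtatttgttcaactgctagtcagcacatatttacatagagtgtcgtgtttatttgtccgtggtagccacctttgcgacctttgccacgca

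GC content over these 101 bp was 26.7%, 35.6%, 39.6%, 41.6%, 43.6% and 45.5% in the order printed. The slp1 to slp2 summit carries GGTCACACT in 2 copies. That word is the core of Motif 1, a core promoter element bound by the zinc finger protein M1BP. It was searched for only after this sequence had been seen, and no test is given. Among the 564 members this was the only one to hold it (0.177%), against 1 of 1300 intronic, 20 of 1618 promoter (1.24%) and 4 of 5010 weaker intergenic peaks (0.0798%).

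The next 2 sequences show GATAAG, the word recognised by GATA factors, in capitals on either strand. They are among the members of highest signal that hold it, and ranked 13 and 36 of all members.
Between lncRNA:CR44853 and lncRNA:CR44854, chr2L:14556964-14557064: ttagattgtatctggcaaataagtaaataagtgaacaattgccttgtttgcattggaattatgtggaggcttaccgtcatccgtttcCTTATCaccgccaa
Between lncRNA:CR45632 and Gr93a, chr3R:21828996-21829096: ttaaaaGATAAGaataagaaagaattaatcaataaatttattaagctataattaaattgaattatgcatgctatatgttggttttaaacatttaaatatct

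Among peaks that had passed the same cut on pooled signal, intergenic peaks were about as strong as the other IDR peaks. The lowest signals were 121.0 for intergenic, 120.9 for intronic and 120.9 for promoter peaks. Similar values are therefore partly set by that cut, and the comparison covers only strength above it. The signal of each peak is the caller's own value, deposited by the authors, and ranks peaks within a list. Member signals ran from 121.0 to 1424 with a median of 184.3 (quartiles 144.7 to 275.6), where intronic peaks had a median of 198.0 (149.9 to 275.3) and promoter peaks 192.1 (146.2 to 296.7). The strongest 25% of the IDR list held 130 of the 564 members, 23.0%, and 302 of 1300 intronic peaks, 23.2%. Their odds ratio was 0.990 (95% interval 0.783 to 1.25, two-sided exact test by Fisher's method, adjusted p = 1). Of the promoter peaks 27.1% lay in it, for an odds ratio of 0.804 (0.643 to 1.01) that did not pass (exact p = 0.0585, adjusted 0.144). All such p-values are from the same test, were adjusted over 27 tests, treat peaks as independent and describe the lists rather than the spread between embryo collections.

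**Figure D1:**
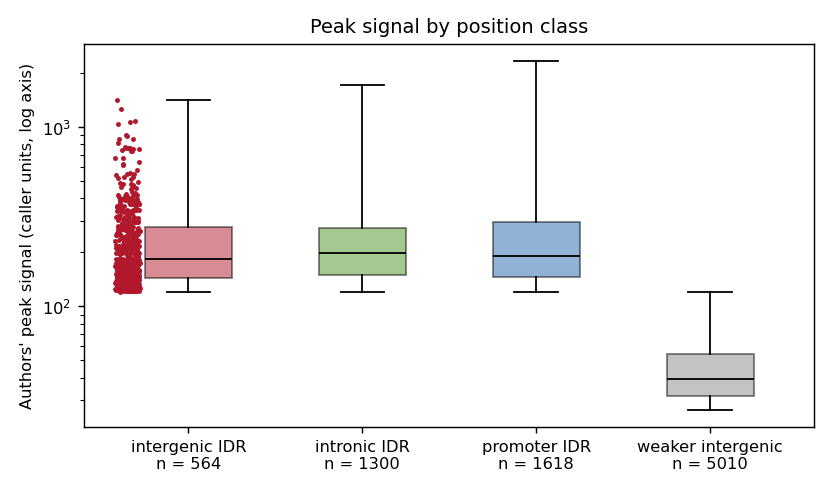
Peak signal (authors' values in the caller's units, log axis) of the 564 intergenic, 1300 intronic and 1618 promoter IDR peaks and of 5010 weaker intergenic peaks. Boxes give quartiles and medians, whiskers the lowest and highest value, and points the single intergenic members; the 3 IDR classes have medians of 184.3, 198.0 and 192.1, and the weaker peaks end at 120.8, just below the lowest IDR peak.

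The 10 strongest intergenic peaks had signals from 819.7 to 1424, and their flanking genes are described as neighbours with no test. The first, at 2R 13035159 to 13035534, had a signal of 1424 and ranked 29 in replicate 1 and 4 in replicate 2. It lies 27438 bp past the 3′ end of Su(z)2 (FBgn0265623), a Polycomb group gene, and 9346 bp from CG13323. The seventh, at 2R 12958041 to 12958441 with a signal of 895.4, lies between CG13321 and Psc, the related Polycomb group gene next to Su(z)2, 7754 bp from the 3′ end of Psc, and ranked 34 and 125. Each of these summits therefore lies on the outer side of 1 gene of the Psc and Su(z)2 pair. Not all members near the pair do, since a weaker one at 2R 12990820 to 12991219 (221.2) lies between Psc and Su(z)2. Another, at 2R 12959339 to 12959634 (672.6), lies like the seventh between CG13321 and Psc.

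The third, eighth and ninth strongest lie beside transcription factor genes. The peak at 4 497711 to 498087 (signal 1079) lies 3923 bp upstream of zfh2, a gene for a zinc finger homeodomain protein, and ranked 8 and 138. The peak at 2L 3832347 to 3832695 (853.3) lies between the adjoining forkhead genes slp1 and slp2, which act in segmentation, 4311 bp upstream of slp2, and ranked 61 and 95. The peak at 2L 8845939 to 8846290 (852.8) lies 16453 bp past the 3′ end of SoxN, a Sox gene of the early nervous system. It ranked 11 in replicate 1 and 497 in replicate 2.

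The rest of the 10 had neighbours of other kinds. The second strongest, at 2L 2202200 to 2202594 (1268), lies between COX7AL2, named for a cytochrome c oxidase subunit, and CG31668, and ranked 24 and 20. The fourth, at 3R 5113080 to 5113460 (1070), lies between CG43131 and RabGGTa, a subunit gene of the enzyme that prenylates Rab proteins, and ranked 12 and 82. The fifth, at 2R 22802783 to 22803135 (1036), lies in a gap of only 1340 bp between the 3′ ends of blw, an ATP synthase subunit gene, and CycB, the cyclin B gene, and ranked 41 and 49. The sixth, at 3L 724361 to 725004 (903.0), has a long noncoding RNA gene on each side, and the tenth, at 3L 10769645 to 10769997 (819.7), lies 2102 bp upstream of CG43245 in a 75047 bp gap that begins at NijA, the Ninjurin A gene. They ranked 36 and 107, and 129 and 59. The lowest rank among the 10 was 129 in replicate 1 and 497 in replicate 2.

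Replicate support of the members was close to that of all IDR peaks. A member was counted as supported when a peak among the top 3571 of each replicate list overlapped it by at least 1 bp. This held for 362 of 564 members, 64.2% (60.1 to 68.1%), against 64.7% of all IDR peaks. The share was 63.9% for intronic peaks (odds ratio 1.01, 0.823 to 1.24, adjusted exact p = 1) and 65.6% for promoter peaks (0.941, 0.770 to 1.15, adjusted exact p = 0.787). A further 111 members were within the top 3571 of replicate 1 alone, 86 within those of replicate 2 alone, and 5 within those of neither. The IDR list was derived from these same 2 replicates, so support, here and below, is not independent evidence for a peak.

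The comparison with promoter peaks turned on the replicate used. Among the top 3571 peaks of replicate 1, 62.5% of 576 intergenic and 71.4% of promoter peaks were also in the top of replicate 2 (odds ratio 0.669), which passed. Among those of replicate 2, 65.3% of 548 intergenic and 61.1% of promoter peaks were also in the top of replicate 1 (odds ratio 1.20), which did not pass. The 2 libraries differed in the same way in the IDR list, where promoter peaks found in the top of replicate 1 alone numbered 201 and those of replicate 2 alone 337. That difference between libraries was not tested.

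Within the IDR list, signal ranks were shared loosely. A peak of the list of replicate 1 overlapped 560 members, one of replicate 2 overlapped 557, and 553 had both. Across these 553, Spearman's rho of the ranks was 0.358, against 0.319 across 1284 intronic and 0.502 across 1594 promoter peaks. These are descriptions across peaks of the same 2 libraries. The list was cut on pooled signal, so a kept peak that is low in 1 replicate tends to be high in the other. Such a cut can lower rho, which therefore does not measure agreement over the full lists. The difference in rho between classes was not tested. In 19 members the matched replicate peak was also matched by another IDR peak, and without them rho was 0.353 (535 members).

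**Figure D2:**
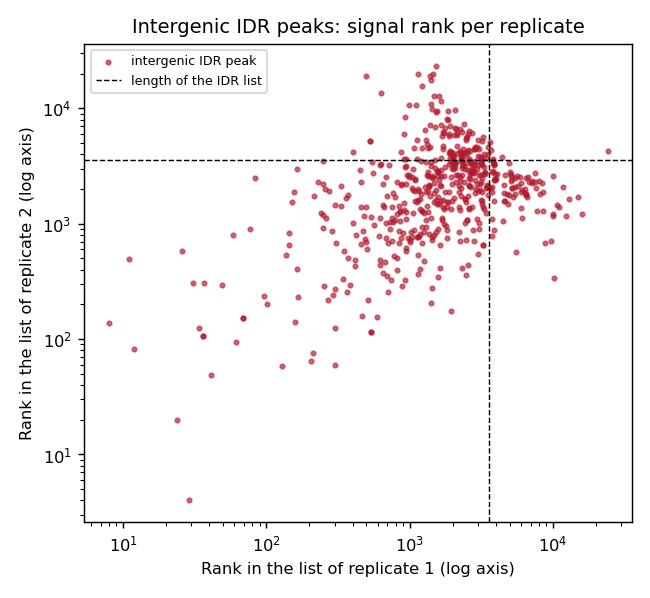
Rank of each of 553 intergenic IDR peaks in the list of replicate 1 (x, log axis) and replicate 2 (y, log axis), rank 1 being the highest signal. Dashed lines mark rank 3571, and most members drawn (362 of 553) lie below and left of both lines. Points beyond 1 line have a peak in that replicate, ranked past 3571. A caller q-value below 0.05 in both replicates was reached by 537 of 564 members, 95.2%. The same held for 95.9% of intronic and 96.2% of promoter peaks.

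Among the 553 members with a peak in both replicate lists, 4 of the 5 whose ranks differed most were high in replicate 1. A peak in the 235 bp between the 3′ ends of srp, the GATA factor gene serpent, and lncRNA:CR42839 ranked 1528 in replicate 1 and 23424 in replicate 2. Peaks 7433 bp upstream of Dr, a muscle segment homeobox gene, and between CG2865 and Raf, the kinase gene, had ranks of 1140 and 1461 in replicate 1, and of 19823 and 19998 in the other. A peak between nht and esg, a Snail family gene, ranked 499 and 19005. The fifth went the other way: a peak between fuss, a Ski family gene, and toy, a Pax6 gene, ranked 24111 in replicate 1 and 4289 in replicate 2. The signal in the lower replicate was 18.9 to 21.8 in all 5. A further 7 members had no overlapping peak in the list of replicate 2 and 4 had none in that of replicate 1, so they have no rank there. The highest ranked of these, named after their values were seen, were the peaks between CG33958 and CG30114 (rank 269 in replicate 1), beside lncRNA:cherub (657) and beside tsh (803), all missing from the list of replicate 2.

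Intergenic peaks lay a few kilobases from the nearest TSS, as weaker intergenic peaks did. The median distance was 3210 bp (quartiles 1432 to 6843, longest 33877), against 3442 bp (1643 to 7066) for weaker peaks. The summit lay within 2000 bp of a TSS in 195 members, 34.6%, and in 31.1% of weaker peaks (odds ratio 1.17, 0.973 to 1.40, adjusted exact p = 0.234). The next bin, 2001 to 5000 bp, held 180 members, and 14 members were 20001 bp or farther away. The nearest TSS was downstream of the summit in the sense of transcription, with the summit upstream of it, in 60.1% of members and 59.6% of weaker peaks.

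**Figure D3:**
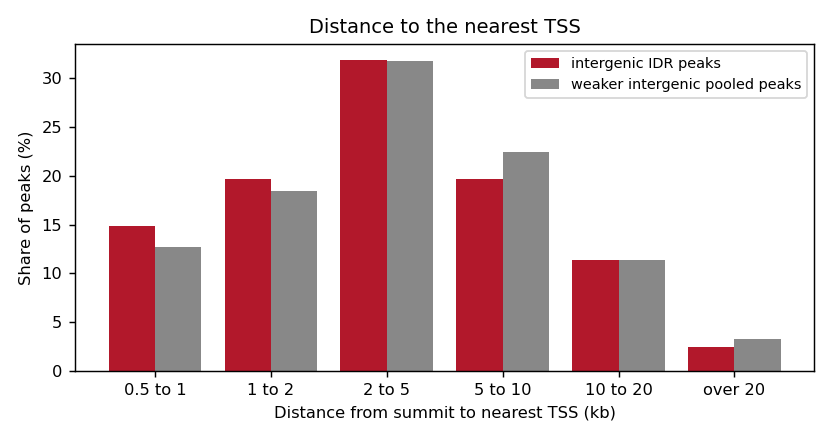
Share of the 564 intergenic IDR peaks (red) and 5010 weaker intergenic peaks (grey) by distance from the summit to the nearest TSS (bins in kb). The bin from 2 to 5 kb is the fullest in each set, with 31.9% of members and 31.8% of weaker peaks.

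Signal and support varied little with distance. Median signal was 169.7 at up to 1000 bp (84 members), 206.7 at 1001 to 2000 bp (111), 192.0 at 2001 to 5000 bp (180), 166.0 at 5001 to 10000 bp (111) and 191.1 at 10001 to 20000 bp (64), with no order from near to far. Support in both replicates was 61.9%, 66.7%, 66.7%, 60.4% and 65.6% in the same bins, and the exact intervals of these shares overlap throughout. The 14 farthest members had a median signal of 175.3, and 7 were supported.

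The members farthest from any gene body are all on arm 3L. The farthest lies 33867 bp from lncRNA:CR46353, in the 73549 bp gap that ends at rpr, the cell death gene reaper. It had a signal of 169.8 and ranked 1229 and 4513. Another lies 31830 bp from CG43245 in the gap that begins at NijA and ranked 1671 and 1575. The third lies 29094 bp past the 3′ end of vvl, a POU domain gene of tracheal and neural development, and ranked 2550 and 436.

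Next to the position threshold, the members just outside 500 bp were 1 bp beyond it from E(spl)m2-BFM (signal 382.1) and CG8635 (129.1), and 512 bp from CG17896 (313.0). The promoter peaks just inside it, among the 773 whose summit is outside gene bodies, were 500 bp from CG6602 (145.5), 500 bp from lncRNA:CR44755 (121.3) and 497 bp from CG43401 (121.3). The weakest members had signals of 121.2, 121.1 and 121.0, at the floor of the IDR list, and the last of them lies 990 bp upstream of ex, a Hippo pathway gene.

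The genes on either side of a member were oriented much as around weaker peaks. The gap between genes was divergent, with a TSS at each end, for 145 members (25.7%), tandem for 303 (53.7%) and convergent, with 3′ ends at each end, for 116 (20.6%). Weaker peaks lay in 26.0% divergent, 49.2% tandem and 24.7% convergent gaps. The odds ratios were 0.987 (0.808 to 1.20), 1.20 (1.01 to 1.42) and 0.789 (0.637 to 0.977), and none passed (adjusted exact p = 1, 0.137 and 0.100 in turn), although the last 2 had unadjusted p-values of 0.0456 and 0.0296.

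Noncoding RNA genes were frequent neighbours of members and of weaker peaks alike. The nearest TSS belonged to an ncRNA gene in 187 members, 33.2%, and in 32.9% of weaker peaks (odds ratio 1.01, 0.842 to 1.22, adjusted exact p = 1). It belonged to a protein-coding gene in 362 members and to a tRNA gene in 15. A flanking gene had an IDR promoter peak of its own in 151 members, 26.8% (23.2 to 30.6%), against 23.9% of weaker peaks. The median gap was 11803 bp for members and 13133 bp for weaker peaks.

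Intergenic peaks were clustered more than promoter peaks. Another IDR summit lay within 5000 bp of 306 members, 54.3%, and of 48.5% of all IDR peaks. The share was 41.7% for promoter peaks, an odds ratio of 1.66 (1.37 to 2.01, adjusted exact p = 4.1e-06), and 54.2% for intronic peaks, an odds ratio of 1.00 (0.823 to 1.22, adjusted exact p = 1). The difference from promoter peaks did not pass with the top peaks of replicate 2 alone (49.8% against 44.7%, odds ratio 1.23) and passed with those of replicate 1 alone (1.51). The neighbour was itself intergenic for 228 members, 40.4%, a promoter peak for 89 and an intronic one for 20, counting each kind apart.

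The 564 members fell into 382 gaps, and 295 of them, 52.3%, shared their gap with another member. Longer gaps hold more summits in any list. No matching count was made for another set of peaks, so the counts of this paragraph have no baseline. A single member was found in 269 gaps, 2 in 71, 3 in 27 and 4 or more in 15. When summits were chained at 5000 bp or less, 426 groups resulted, of which 336 held a single member, 59 held 2, 20 held 3 and 11 held 4 or more.

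The cluster of most members, 6 over 7010 bp, lies between lncRNA:CR44363 and CG7560 at 3L 11415589 to 11422599. Its signals were 365.9, 324.4, 226.0, 468.4, 220.5 and 205.4 from left to right, and all 6 were supported by both replicates. The last 2 match the same peak in each replicate list, at ranks 2533 and 1081, so they are 1 peak there. A seventh member lies in the same 19063 bp gap, which also held 13 weaker peaks.

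Next came 4 clusters of 5 members, of which those near sty and among the E(spl) genes had the highest summed signals. The sty gene encodes Sprouty, an inhibitor of receptor tyrosine kinase signalling, and its cluster at 3L 3390803 to 3396287 lies on both sides of lncRNA:CR45737 with signals of 139.5, 128.8, 483.9, 212.5 and 621.2. The 3 peaks on the sty side were the stronger ones and were supported by both replicates, whereas the 2 on the far side ranked 5936 and 4469 in replicate 2. The cluster at 3R 26009091 to 26020441 has its summits between genes of the Enhancer of split complex, Notch pathway targets, beside E(spl)malpha-BFM, Kaz-m1, E(spl)m2-BFM and 3 lncRNA genes. Its signals were 413.1, 284.6, 205.1, 382.1 and 163.3, and all 5 were supported by both replicates.

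**Figure D4:**
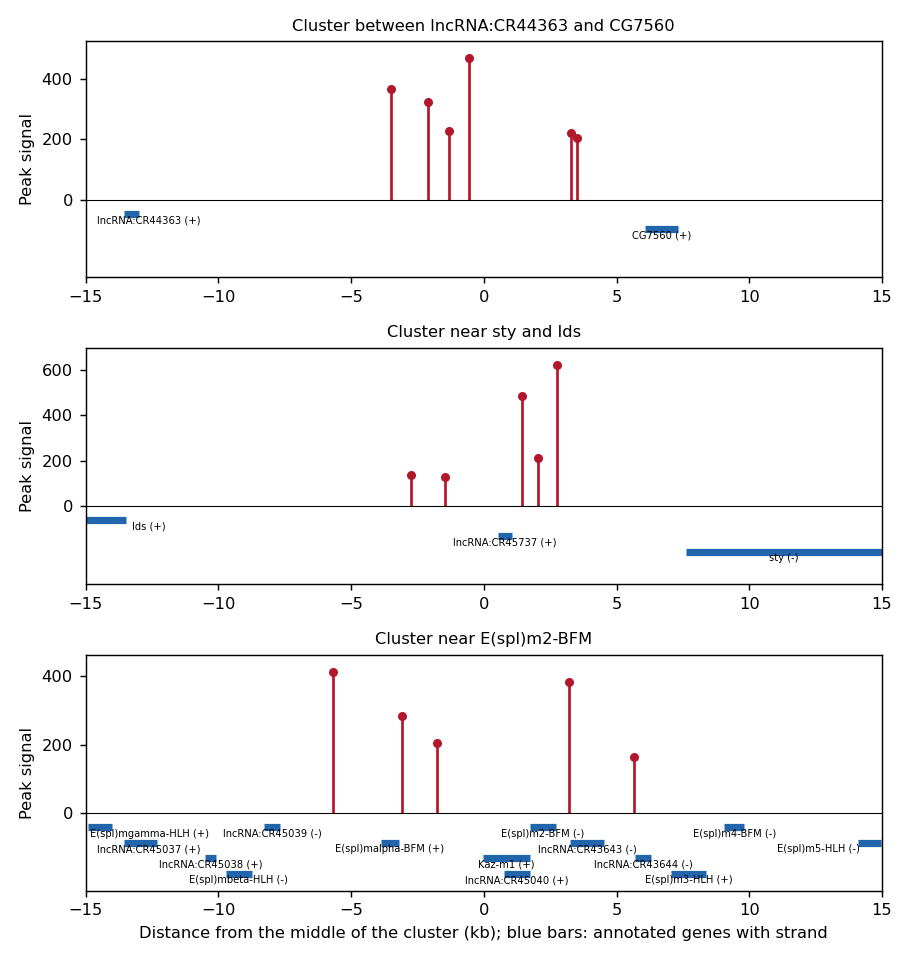
The 3 leading clusters of intergenic peaks, each as distance from its middle (kb, x) and peak signal (caller units, y), with stems for single members and blue bars for annotated genes within 15 kb with their strand. The 6, 5 and 5 stems stand outside the bars, since members lie between genes.

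Chains that held strong peaks were also found beside other genes. The peaks between COX7AL2 and CG31668 numbered 3 within 3063 bp, with signals from 362.0 to 1268, and all 3 were supported by both replicates. Another 4 lie around CG43131 between corto, a chromatin protein gene, and RabGGTa. Their signals ran from 125.6, near the floor of the IDR list, to 1070, and 2 of the 4 were supported by both replicates. Members are counted by summit, and 6 of the 564 are pairs of summits in the same peak interval with the same replicate peaks. These pairs had signals of 903.0 and 758.4 between lncRNA:CR45411 and lncRNA:CR43785, 760.6 and 342.4 between RasGAP1, a Ras GTPase activator gene, and CG10809, and 576.3 and 201.1 between ph-d and ph-p, the polyhomeotic genes of the Polycomb group. By gap, the region between CG7320 and lncRNA:CR45935 held 7 members of at most 302.3, and that between scyl, a growth regulator gene, and lncRNA:CR44720 held 6.

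Lists of developmental regulators flanked 0 to 24 members each. Each list was counted over 564 members and 5010 weaker peaks, as a description with no test. Segmentation genes flanked 24 members (4.26%, 2.75 to 6.27%) and 3.63% of weaker peaks, through 12 of 28 annotated genes. After slp1 and slp2 the strongest was at croc, a forkhead gene of head development, with a signal of 614.8 at 9642 bp. Of these 24 peaks 11 were supported by both replicates, where 64.2% of all members were. Their median signal was 158.5, against 184.3 for all members.

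Neural fate regulators flanked 22 members (3.90%) and 3.19% of weaker peaks, with zfh2, SoxN and the Sox gene D, Dichaete (361.9, 1227 bp past its 3′ end), the strongest. Of the 22, 9 were supported by both replicates, where 64.2% of all members were. The median signal of the 22 was 150.6, against 184.3 for all members. Mesoderm and heart regulators flanked 14 members (2.48%) and 2.30% of weaker peaks. Of these 14 members 11 were supported, and their median signal was 212.0. The T-box gene mid had a peak of 383.8, its relative Doc2 was flanked by 5 members up to 297.2, and zfh1 had a peak of 232.1 upstream.

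Secreted ligands flanked 8 members (1.42%) and 1.78% of weaker peaks. The strongest of these lies between pyr and ths, the adjoining genes of both FGF8-like ligands (316.0), and another between wg and Wnt4 (306.2), where Wnt4 is flanked by 3 members. Adhesion and guidance genes flanked 16 members (2.84%) and 2.99% of weaker peaks. Here 18w, a Toll family receptor gene, was flanked by 6 members up to 296.9, robo2, a Slit receptor gene, by 3 up to 275.6, and Tollo by 3 up to 245.9.

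Tracheal and epidermal regulators flanked 4 members (0.709%, 0.194 to 1.81%) and 2.30% of weaker peaks (1.90 to 2.75%). This is 1 of 15 lists, rests on 4 members and was not tested. Among the 564 strongest weaker peaks, a set chosen after seeing the data, the share was 2.66%. In that set the segmentation, neural and mesoderm lists had shares of 3.90%, 3.55% and 3.37%. The 4 members were 2 at vvl (up to 298.6) and 1 each at the zinc finger genes tsh (216.8) and salm (214.3). Hox genes flanked 0 of 564, which allows a share of up to 0.652% (one end of the exact interval), and 0.120% of weaker peaks. Each of 4 other lists flanked 1 member, or 0.177%, and few weaker peaks. Nuclear receptor genes did so at Hr38 (216.1), against 0.160% of weaker peaks, and cuticle genes at Cpr76Ba (204.8), against 0.639%. The microRNA gene was mir-4981 (312.8), against 0.299%, and the snRNA or snoRNA gene was snRNA:U2:14B (247.9), against 0.240%.

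Chemoreceptor genes flanked 9 members (1.60%) and 1.80% of weaker peaks. The strongest was at Gr93a (484.2), flanked by 5 members, with Gr93b (192.5) next to it and Gr89a (236.0) elsewhere. Cytoplasmic ribosomal protein genes flanked 2, at the 3′ ends of RpS15Aa (134.6) and RpS23 (122.5), which is 0.355% of members against 0.459% of weaker peaks. Transfer RNA genes flanked 21 members (3.72%) and 2.57% of weaker peaks, led by tRNA:Gly-GCC-1-4 (398.2), tRNA:Met-CAT-1-5 (382.3) and tRNA:Ser-GCT-2-2 (345.8) at 5084, 8480 and 8961 bp. Long noncoding RNA genes flanked 308 members, 54.6% (50.4 to 58.8%), and 52.7% of weaker peaks.

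Summits of intergenic peaks were AT-rich within a GC-richer surrounding. Over the 101 bp centred on the summit, mean GC content was 33.7% in members (SD 8.86, 564 peaks) and 40.7% in weaker intergenic peaks (SD 9.78, 5010 peaks). In windows of 21 bp it was 33.1% at the summit of members, 40.6% at 100 bp before and 40.9% at 100 bp after it, 45.8% at 280 bp before and 45.7% at 260 bp after it. The weaker peaks had 40.8% at the summit, 42.3% at 280 bp before and 42.7% at 260 bp after it.

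GC content was below 30% at 214 members, 37.9%, and at 16.2% of weaker peaks (odds ratio 3.16, 2.62 to 3.81, adjusted exact p = 1.32e-29). Against only those weaker peaks with q below 0.05, of which 25.2% were that AT-rich, the odds ratio was 1.815 and still passed. The shares were 39.2% for intronic peaks (odds ratio 0.947, 0.773 to 1.16, adjusted exact p = 0.787) and 41.2% for promoter peaks (0.874, 0.718 to 1.06, adjusted exact p = 0.310). Against the 564 strongest weaker peaks, which have signals from 74.8 to 120.8 and a share of 32.1%, the odds ratio was 1.29 (1.01 to 1.65) and did not pass (adjusted exact p = 0.371), a comparison chosen after seeing the data. The level depended on the replicate, at 50.7% when the top of replicate 2 defined the intergenic set and 25.7% when replicate 1 did, and the weaker peaks then stood at 25.3% and 8.87%.

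**Figure D5:**
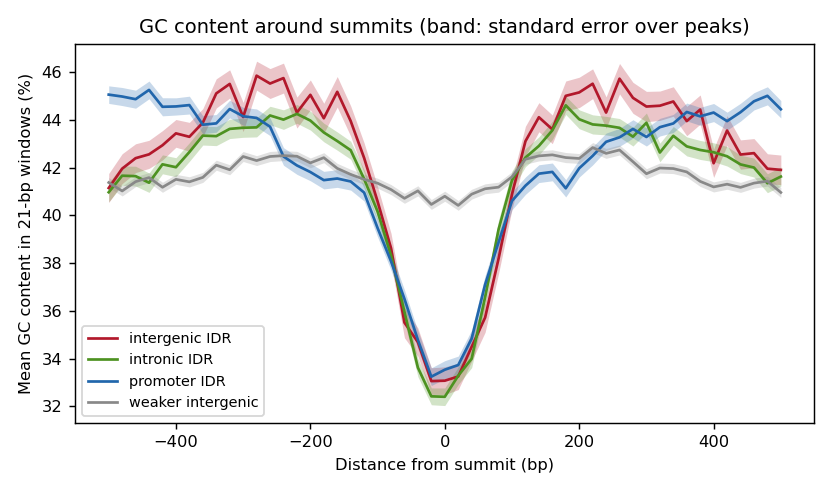
Mean GC content (%) in 21-bp windows by distance from the summit (bp) for the 3 classes of IDR peaks and the weaker intergenic peaks, with bands of the standard error over peaks. All IDR classes dip to about the same level at the summit, 33.1% for intergenic members, while weaker intergenic peaks stay at 40.8%.

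Of 13 short words searched within 50 bp of the summit on either strand, 2 were more frequent at members than at weaker intergenic peaks (15.4% of the words) and 2 less frequent (15.4%). Among them were the homeodomain core TAATTA, the GAGA factor word GAGAGA, the core of the site of the pioneer factor Zelda, CAGGTA, and the palindromic E-box CACGTG. The GATA factor word was GATAAG, and the DREF element was searched as TATCGATA and through its shorter stretch CGATA. The core of the Pleiohomeotic site was GCCAT, and the general E-box, which includes the palindromic one, was CANNTG. Simple runs were the A tract AAAAAA, the longer run TTTAAAAA that also joins T to A, the alternating TATATA and the repeat CACACA.

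The GATA word, GATAAG, was at 44 members, 7.80% (5.73 to 10.3%), and at 4.45% of weaker peaks (odds ratio 1.82, 1.30 to 2.54, adjusted exact p = 0.00513). It was at 6.62% of intronic and 5.75% of promoter peaks. TATATA was at 12.2% of members and 7.76% of weaker peaks (odds ratio 1.66, 1.26 to 2.17, adjusted exact p = 0.00324), but passed with the top peaks of neither replicate alone (1.37 for replicate 2 and 1.26 for replicate 1, adjusted exact p = 0.0975 and 0.406).

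The Pleiohomeotic word GCCAT was at 14.0% of members and 20.3% of weaker peaks (odds ratio 0.640, 0.500 to 0.820, adjusted exact p = 0.00246). The E-box CANNTG was at 33.7% and 41.0% (0.732, 0.610 to 0.880, adjusted exact p = 0.00431). GCCAT did not pass with the top peaks of replicate 2 alone (0.759, adjusted exact p = 0.117), and CANNTG did not with those of replicate 1 alone (0.806, adjusted exact p = 0.0557). Against weaker peaks of q below 0.05 only GATAAG passed (1.90), with TATATA at 1.20, GCCAT at 0.840 and CANNTG at 0.836. Within strata of GC content, GATAAG alone still passed (odds ratio 1.75), and TATATA turned to 0.897, GCCAT to 0.931 and CANNTG to 0.968. Against the strongest weaker peaks 0 words passed, with GATAAG at an odds ratio of 2.19 (1.28 to 3.73, exact p = 0.00460, adjusted 0.0621). Members with GATAAG had a median signal of 180.5, and those without it 184.4. A word is a run of letters and not a shown binding site.

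Members were unevenly spread over the arms. Per Mb of sequence that obeys the position rule, arms 2L, 3L and 4 held 20.5, 20.5 and 22.2 members, 3R held 15.4, and 2R and X held 8.94 and 8.55. The counts were 139 on 2L, 67 on 2R, 187 on 3L, 119 on 3R, 6 on arm 4 and 46 on X. Of the bases that obey the rule arm 2R holds 20.4%, but it held 11.9% of members and 16.0% of weaker peaks. These shares are described and were not tested. An annotated transposable element covered the summit of 3 of 564 members and of 37 of 5010 weaker peaks.

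CG2202 itself, at X 10848757 to 10852327, was not flanked by a member. The nearest lay 52926 bp away, between CG15208 and CG43901, with a signal of 166.4, whereas a promoter IDR peak lay 59 bp from the TSS of CG2202.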

How the data were processed

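ChIP-seq peak lists of 2 biological replicates, 1 pooled list and 1 IDR list on dm6 were used as deposited. Per the labels, chromatin was sonicated to a size range of 200 to 800. Per the deposited text files, replicate lists derive from each replicate's alignment, the pooled list from both, and the IDR list from the other lists. Neither aligner nor caller nor IDR cutoff is stated in the labels or files used. The deposited signal value of each peak is the caller's own. The deposited −log10 q-value was used only to describe and filter peaks.

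Genes and TSSs came from the Ensembl BDGP6 annotation, of the same assembly as the RefSeq Release 6 genome, whose arm lengths hold all peaks. Overlap meant 1 bp or more, and a replicate match was the overlapping peak of highest signal. Differences of shares were tested by Fisher's exact method (two-sided), adjusted by Benjamini-Hochberg over 27 tests with a threshold of 0.05, with Wald 95% intervals of odds ratios. Shares have exact Clopper-Pearson intervals. Composition was controlled with the Mantel-Haenszel odds ratio over 20 strata of GC content.

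The members and lists were chosen with earlier results of these data known. Named peaks were the 10 of highest signal, the 3 farthest from a gene, 3 on each side of 500 bp and the 3 leading clusters. Also named were the 5 of most different ranks, up to 3 genes per list and CG2202. Other chains and gaps, further members near Psc, and the 3 weakest members were named after their values were seen. Tests ran in scipy 1.17.1 and statsmodels 0.14.6 under Python 3.11.15, with tables in pandas 2.3.3 and numpy 2.4.6 and figures in matplotlib 3.10.9. Fisher's test was checked on simulated independent draws, which does not cover peaks that cluster. The test within GC strata was not simulated.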

Additional observations from a re-analysis of the deposited data

How the results depend on the processing

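Each share was recomputed under the alternatives, and values are odds ratios of members against the named set. The low GC share against weaker intergenic peaks, and the cluster share against promoter peaks, kept their direction under every alternative run. They lost the threshold only against the strongest weaker peaks (1.29, chosen after seeing the data) and without replicate 1 (1.23), and without a replicate they ranged from 3.05 to 3.55 and from 1.23 to 1.51. Differences that did not pass often changed direction around 1. With a TSS distance over 1000 bp this held for low GC against intronic peaks (1.06), neighbours against intronic peaks (0.970), divergent gaps (1.01) and ncRNA neighbours (0.995). With the top 1000 IDR peaks, which left 147 members, it held for support against promoter peaks (1.21), divergent gaps (1.10) and ncRNA neighbours (0.960), low GC against promoter peaks passed (0.526) and 0 words passed. With 1 peak per 500 bp group it held for support against intronic peaks (0.996) and divergent gaps (1.00). It held for support against intronic peaks with q under 0.05 in both replicates (0.845), low GC against promoter peaks under 35% (1.10), neighbours against intronic peaks within 2000 bp (0.933) and 10000 bp (0.895), and near TSS against the strongest weaker peaks (0.933). Without a replicate, odds ratios ranged from 0.876 to 1.04 for support and 0.862 to 0.916 for neighbours against intronic peaks, 0.669 to 1.20 for support against promoter peaks (past the threshold without replicate 2), 0.984 to 1.10 and 0.968 to 1.01 for low GC against intronic and promoter peaks, and 0.924 to 1.05 for divergent gaps. Words past the threshold numbered 4, and 1 within GC strata, where TATATA changed direction (0.897), 7 with a 100 bp window, 1 against weaker peaks of q under 0.05 and 0 against the strongest weaker peaks. The cause of these changes was not tested. No paired analysis was possible because the samples form 1 group. Read depth is unknown, which limits what the absence of a peak can show.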
